A study of Mus musculus with 12 samples.

Results

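The 10 genes described here encode 5 IGF binding proteins (Igfbp1, Igfbp2, Igfbp3, Igfbp4 and Igfbp7), the IGF-1 and insulin receptors (Igf1r, Insr), the receptor substrates Irs1 and Irs2, and the transcription factor Foxo1. They were taken by symbol from a table of 38087 genes, each symbol matched 1 row, and all 10 were among the 14170 genes that passed the count filter. The 12 libraries hold liver RNA of male C57BL/6j mice aged 13 to 16 weeks that were germ-free, without any microbiota. In the ghrelin group (n = 6 libraries) the dose for a mouse was 10 µg of rat ghrelin under the skin on each of 5 days, and phosphate-buffered saline took its place in the PBS group (n = 6 libraries). Injection was at zeitgeber time 2 (2 h into the light phase), the time with which the samples are also labelled. Ghrelin is a stomach peptide that stimulates feeding and growth hormone release. The comparison is of repeated ghrelin with vehicle in the absence of a microbiota. No label gives food intake, fasting, insulin or glucose, and none names a cage or litter.

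IGF-1 made by the liver under growth hormone circulates bound to IGF binding proteins, which lengthen its life in plasma and limit its access to the IGF-1 receptor. Hepatocytes respond mainly through the insulin receptor, which phosphorylates IRS1 and IRS2 and through them activates PI3-kinase and AKT. AKT phosphorylates FOXO1 and keeps it out of the nucleus, so that insulin switches off FOXO1 targets. Igfbp1 and Irs2 are among the best known of these targets, and their transcripts are high in fasting and low after a meal.

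The promoter of Igfbp1 carries the insulin response sequence at which FOXO1 action was worked out, and the promoters of the receptor substrates share part of its letters. They are shown because the levels of Igfbp1 and Irs2 are compared below. Of the 10 genes, 9 matched the RefSeq promoter table (build GRCm38.p6), and Insr did not. Of the 250 bases before each RefSeq start, the stretches with matches to the searched letters are given 5′ to 3′ on the strand of the gene, with the matches in capitals. On both strands the search was for TGTTTTG and TATTTTG, each a part of the insulin response sequence. It was also for a forkhead motif with the letters GTAAACA, and the E-box with the letters CACGTG.
Igfbp1, chr11:7197637-7197736, plus strand: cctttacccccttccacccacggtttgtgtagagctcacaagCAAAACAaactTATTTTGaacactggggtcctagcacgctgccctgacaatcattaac
Irs1, chr1:82291460-82291589, minus strand: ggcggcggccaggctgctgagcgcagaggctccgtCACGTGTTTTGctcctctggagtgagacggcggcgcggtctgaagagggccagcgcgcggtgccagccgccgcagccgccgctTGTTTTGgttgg
Irs2, chr8:11008930-11009029, minus strand: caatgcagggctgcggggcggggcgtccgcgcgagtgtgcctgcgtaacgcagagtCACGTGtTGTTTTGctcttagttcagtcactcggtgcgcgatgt

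In Igfbp1 both parts are present, on opposite strands. A reverse-strand TGTTTTG lies at 108 to 102 bases before the start, and a forward-strand match of the other part, TATTTTG, at 97 to 91 bases. Among all 32851 windows of 250 bases in the table, 5.56% hold a match to TGTTTTG. The letters TATTTTG are held by 3.95% of windows, and 0.381% hold both. In Irs1 the E-box at 115 to 110 bases overlaps the TGTTTTG match that spans 111 to 105 bases, and a second match to it lies at 32 to 26 bases before the start. In Irs2 the E-box lies at 44 to 39 bases and TGTTTTG at 37 to 31 bases. The E-box is found in 6.02% of windows, and in 0.295% it occurs with TGTTTTG. The forkhead letters, found in 3.17% of windows, have no match in the windows of the 9 genes, and the only other match is an E-box of Igfbp2 at 142 to 137 bases. Such matches describe letters in these windows and are no measure of binding.

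Total counts per library ranged from 15775059 to 22302533. The quasi-likelihood test of edgeR with Benjamini-Hochberg adjustment called 15 of 14170 genes at an adjusted p under 0.05, or 0.106%, of which 6 were higher and 9 lower with ghrelin. None of the 10 genes was among them, and 1 of the 10 (Foxo1) had an unadjusted p under 0.05, against 13.4% of all tested genes. DESeq2 called 204 genes, 1.83% of the 11146 to which it gave an adjusted p, and 1 of the 10, again Foxo1. Log2 fold changes are ghrelin over PBS throughout. Their median over the 10 genes was -0.0034, with 4 positive and 6 negative values, and over all tested genes it was 3.19e-05. The labels number the libraries within each group and do not state that each is from a separate mouse, so n counts libraries and the p-values measure the spread between them, which may be technical. In a bulk liver sample, fewer cells of a type and less RNA per cell cannot be told apart.

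**Figure D1:**
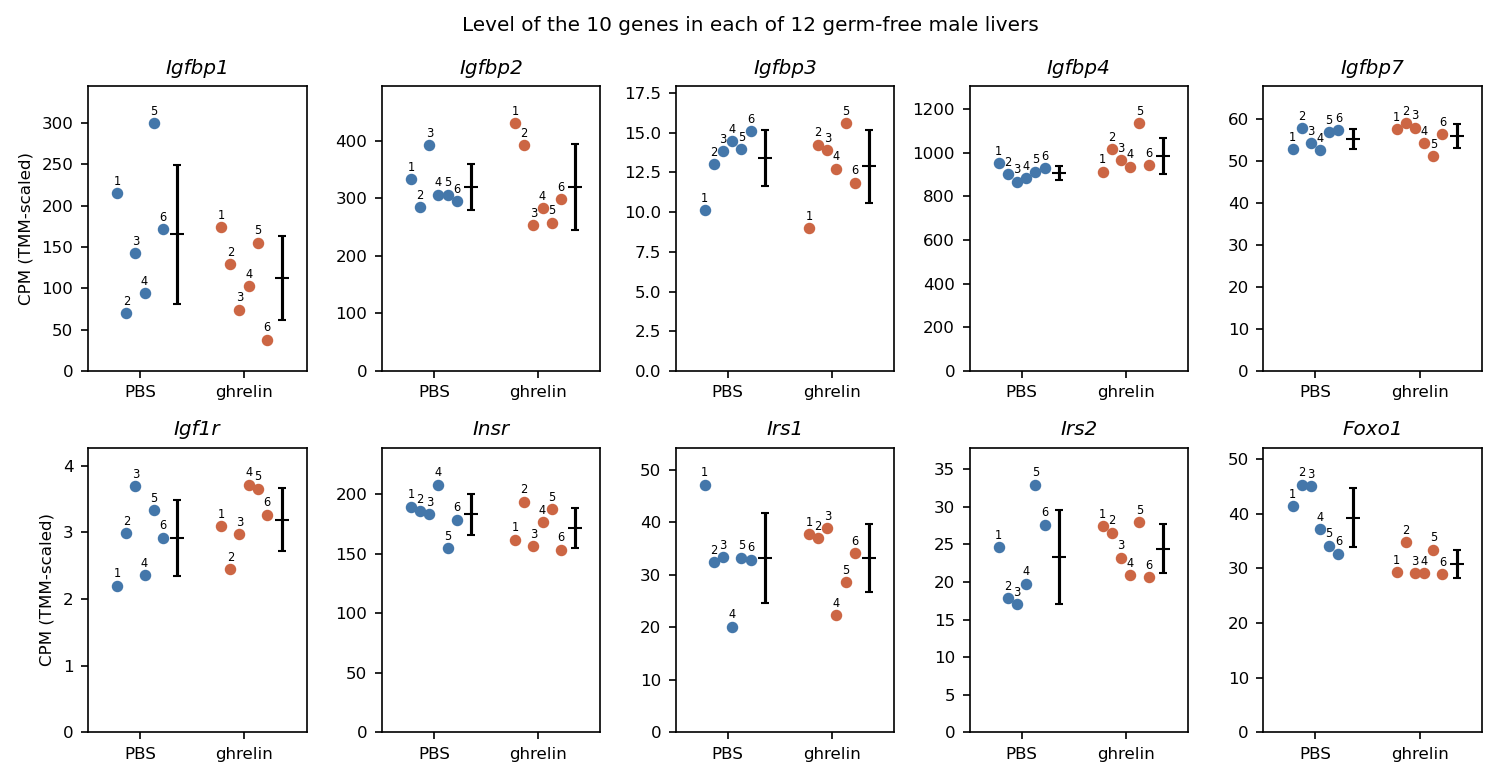
Level of each of the 10 genes in CPM (counts scaled to library size by TMM, axis from 0) in the 6 PBS and 6 ghrelin libraries, numbered as in the labels, with mean and SD at the right of each group. Igfbp1 spreads widest within both groups, Igfbp4 and Igfbp7 are nearly level, and all 6 ghrelin values of Foxo1 lie under the PBS median of 39.2 CPM.

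CPM are counts scaled to the library size, and divided by the kb of exon they can be compared roughly between genes. The length is that of all annotated exons merged, and the transcript present in liver may be shorter. On this scale, set out in the plot of levels per length, Igfbp4 came first with 205 ± 6.95 CPM per kb in PBS and 223 ± 18.5 in ghrelin (SD, n = 6 each), above 98.1% of tested genes with a known length. Igfbp2 followed with 173 ± 21.3 in PBS, then Igfbp1 with 109 ± 55.1 and Igfbp7 with 45.8 ± 1.95 CPM per kb. Igfbp4 exceeded Igfbp2 in 10 of 12 libraries, Igfbp2 exceeded Igfbp1 in 11, and Igfbp1 exceeded Igfbp7 in 10, so the ranges of these neighbours overlap. Insr, at 13.3 ± 1.25 CPM per kb in PBS, was lower than Igfbp7 and higher than Foxo1 in all 12 libraries.

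Below Insr lay a group whose order could not be separated. Foxo1 had 4.53 ± 0.628, Igfbp3 4.29 ± 0.563, Irs2 3.69 ± 0.986 and Irs1 3.63 ± 0.936 CPM per kb in PBS, with overlapping ranges between neighbours. Igf1r was lowest, at 0.174 ± 0.0338 in PBS and 0.190 ± 0.0280 CPM per kb in ghrelin. It lay below every other member in all 12 libraries, and 3.99% of tested genes were lower.

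**Figure D2:**
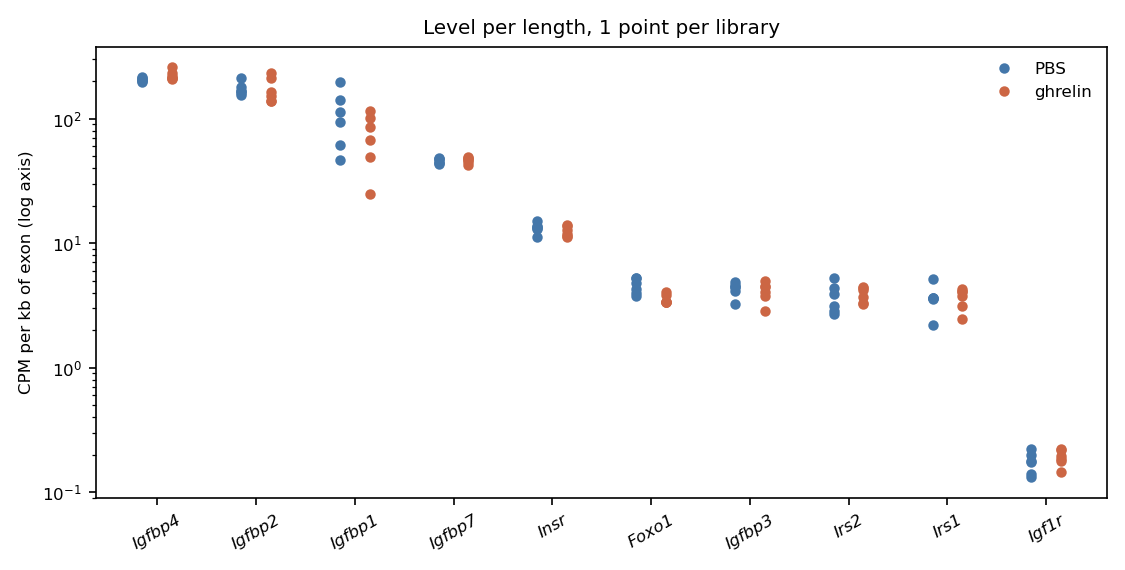
Level of the 10 genes per kb of exon (CPM per kb, log axis), 1 point per library, blue for PBS and orange for ghrelin, ordered by the PBS mean. The 4 abundant binding proteins stand at the left, Insr alone below them, and Igf1r lies lowest in all 12 libraries.

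Igfbp1, the short-lived binding protein that insulin suppresses within hours, varied more between libraries than any other member. It ran from 70.2 through a median of 157 to 299.9 CPM in PBS, and from 38.0 through 116 to 174 CPM in ghrelin. PBS 5 and PBS 1 were above every ghrelin value, ghrelin 6 was below every PBS value, and the other 9 libraries overlapped. The highest value was 4.27 times the lowest within PBS and 4.59 times within ghrelin. The mean went from 166 ± 84.0 to 112 ± 51.1 CPM (SD, n = 6 each), or -0.56 as log2 fold change (SE 0.36; adjusted p = 0.516 by the quasi-likelihood test), so the difference was within the spread. Without PBS 5 it was -0.30. The SD of log2 CPM within groups was 0.79, against a median of 0.19 over all tested genes, and 98.9% of tested genes had a smaller SD.

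Igfbp2, the second binding protein made in quantity by hepatocytes, had nearly the same mean in both groups. Its values ran from 285 through 307 to 393 CPM in PBS and from 253 through 291 to 431 CPM in ghrelin. Ghrelin 1 and ghrelin 2 were high, at 431 and 393 CPM, and 3 ghrelin libraries lay below all of PBS. The log2 fold change was -0.003 (SE 0.13, adjusted p = 0.997), with a sign that changed between alternative fits.

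Igfbp4, which mainly restrains IGF action in tissue and is cleaved by the protease PAPP-A, ran from 867 through 907 to 951 CPM in PBS and from 913 through 953 to 1135 CPM in ghrelin. All 6 ghrelin values were above the PBS median, and 3 of 6 were above every PBS value. The log2 fold change of 0.12 (SE 0.06) did not pass (adjusted p = 0.427). Igfbp4 was also among the steadier genes, with an SD of 0.088 on the log2 scale within groups, and 7.97% of tested genes had a smaller one.

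Igfbp3, the main carrier of IGF-1 in plasma, is made in liver by non-parenchymal cells rather than hepatocytes. Its values ran from 10.1 through 13.9 to 15.1 CPM in PBS and from 8.99 through 13.3 to 15.6 CPM in ghrelin. The libraries PBS 1 and ghrelin 1 were the lowest of their groups, and the log2 fold change was -0.06 (SE 0.12, adjusted p = 0.877). Igfbp7, a relative with low affinity for IGFs that is expressed in vessels and stellate cells, ran from 52.6 to 57.9 CPM in PBS and from 51.2 to 59.0 CPM in ghrelin. Its log2 fold change was 0.02 (SE 0.05, adjusted p = 0.912) and only 2.48% of tested genes had a smaller SD within groups.

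Markers of the cell types that express these last genes were summed per library. The summed CPM of 12 sinusoidal endothelial markers was 639 to 712 in PBS and 652 to 723 in ghrelin, and that of 12 stellate cell and fibroblast markers 571 to 628 and 555 to 655. All 24 were detected and none was called. Single stellate cell and fibroblast markers had log2 fold changes from -0.21 to 0.69. Of these 12, 2 had an unadjusted p under 0.05 (16.7% against 13.4% of all tested genes), 1 higher and 1 lower. Hepatocyte markers, measured in 8 of 9 listed genes, summed to 85188 to 119620 CPM in PBS and 81238 to 96828 CPM in ghrelin, which overlap. Their log2 fold changes were positive in 3 and negative in 5. Of these 8, 2 had an unadjusted p under 0.05 (25% against 13.4% of all tested genes), both lower. Without overlap, 1 of the 8 was lower, against 0.826% of all tested genes in either direction. DESeq2 called 1 of them (Cps1, a urea cycle enzyme) and 1.83% of the genes to which it gave an adjusted p. By edgeR 0 of them were called, against 0.106% of all tested genes. For macrophages the sum of 10 markers overlapped as well, and cholangiocyte markers summed to 20.5 to 32.9 CPM in PBS and 24.9 to 32.3 CPM in ghrelin. Of the 10 macrophage markers, 3 had positive and 7 negative log2 fold changes, from -0.55 to 0.095. Of 6 cholangiocyte markers 5 were tested, 4 positive and 1 negative, from -0.31 to 0.53. An unadjusted p under 0.05 was found for 0 of the markers of either type, against 13.4% of all tested genes. Pancreas markers summed to at most 0.991 CPM, with 3 of 6 at 0 in every library, and adipocyte markers to at most 3.22 CPM. Markers of lymphocytes and neutrophils summed to 4.62 to 9.95 CPM in PBS and 1.53 to 5.02 CPM in ghrelin, with 3 of 8 tested, all negative and none called. Log2 fold changes of these 3 ran from -1.44 to -0.99, with a smallest adjusted p of 0.145 by the quasi-likelihood test. An unadjusted p under 0.05 was found for 2 of the 3 (66.7% against 13.4% of all tested genes), both lower. The part of these cell types in any result here was not tested.

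Of the summed level per length of all 7 measured binding proteins, Igfbp5 and Igfbp6 included, Igfbp4 made up 38.5 ± 4.21% in PBS and 43.2 ± 5.43% in ghrelin (SD, n = 6 each). Igfbp2 made up 32.4 ± 4.15% and 33.0 ± 4.85%, and Igfbp7 8.59 ± 1.13% and 9.01 ± 1.20%. The share of Igfbp1 ran from 10.0 to 31.6% in PBS and from 5.51 to 18.9% in ghrelin. Igfbp3 made up 0.807 ± 0.154% in PBS, and Igfbp5 and Igfbp6 less.

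Insr, which binds insulin at the hepatocyte surface, ran from 155 through 185 to 208 CPM in PBS and from 153 through 169 to 194 CPM in ghrelin. PBS 4 was the highest and ghrelin 6 the lowest of all, and the other values overlapped. The log2 fold change was -0.10 (SE 0.08, adjusted p = 0.63). Igf1r, the receptor through which IGF-1 drives growth in other tissues, ran from 2.20 through 2.96 to 3.70 CPM in PBS and from 2.45 through 3.18 to 3.72 CPM in ghrelin, on only 39 to 80 counts per library. Its log2 fold change of 0.13 (SE 0.15, adjusted p = 0.755) was within that spread, and ran from 0.065 without PBS 1 to 0.21 without PBS 3.

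Per length, Insr exceeded Igf1r by 55.4 to 103 times in the 12 libraries. The log2 ratio of Igf1r to Insr counts was -5.94 ± 0.374 in PBS and -5.71 ± 0.267 in ghrelin (SD, n = 6 each), a difference of 0.24 (SE 0.19) with an exact two-sided permutation p of 0.229, adjusted 0.383 over 3 ratios. Among ghrelin libraries, ghrelin 2 stood apart at -6.23.

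Irs1 and Irs2 dock PI3-kinase to the activated receptor and differ in their control, Irs2 being a FOXO1 target. Irs1 ran from 20.2 through 33.1 to 47.2 CPM in PBS and from 22.3 through 35.6 to 38.9 CPM in ghrelin. PBS 4 and ghrelin 4 were the lowest of their groups, PBS 1 was the highest of all, and the log2 fold change was -0.004 (SE 0.17, adjusted p = 0.996). Irs2 ran from 17.1 through 22.2 to 32.9 CPM in PBS and from 20.6 through 24.9 to 27.9 CPM in ghrelin. Its PBS values lay on both sides of the ghrelin range, PBS 5 above it and PBS 2, PBS 3 and PBS 4 below it. The log2 fold change was 0.06 (SE 0.15, adjusted p = 0.895).

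The log2 ratio of Irs1 to Irs2 counts was 0.51 ± 0.458 in PBS and 0.42 ± 0.301 in ghrelin (SD, n = 6 each; exact two-sided permutation p = 0.723, adjusted 0.723). In PBS the values lay apart in a high set, PBS 1, PBS 2 and PBS 3 at 0.86 to 0.96, and a low set, PBS 4, PBS 5 and PBS 6 at 0.02 to 0.25. The ratio of Igfbp1 to Igfbp2 was -1.11 ± 0.749 in PBS and -1.64 ± 0.745 in ghrelin on the log2 scale (exact two-sided permutation p = 0.255, adjusted 0.383). The difference between groups was -0.53, and -0.32 without PBS 5 and -0.27 without ghrelin 6. Library size cancels in these ratios, and none of the 3 differed beyond the spread.

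**Figure D3:**
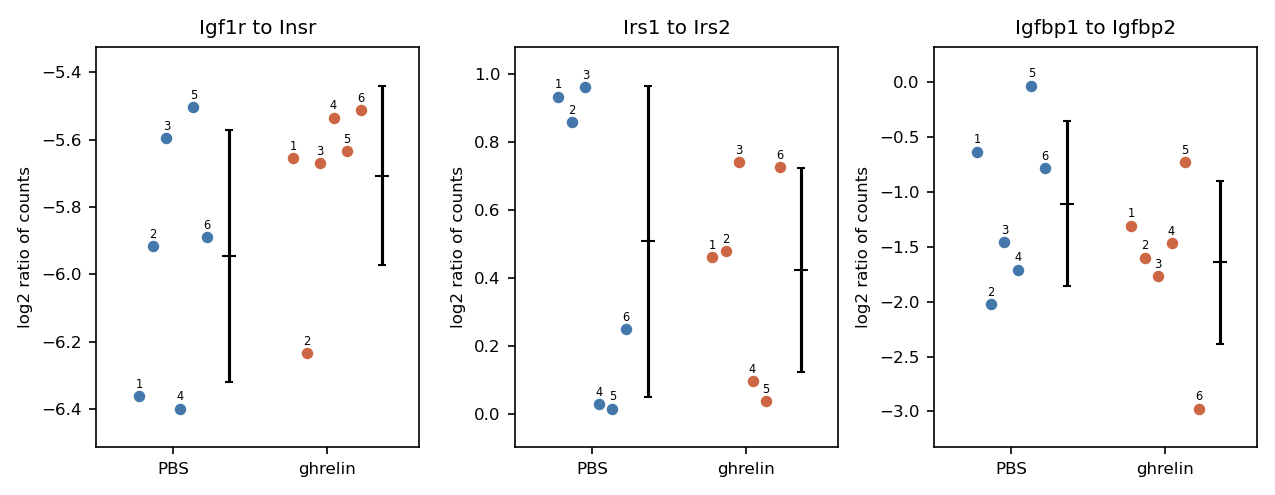
Log2 ratio of counts per library for 3 pairs of members, with libraries numbered and mean and SD at the right of each group (axes do not start at 0). The groups overlap in all 3, and ghrelin 2 stands apart in the ratio of Igf1r to Insr.

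Foxo1 was the member with the smallest p. Its values ran from 32.7 through 39.2 to 45.3 CPM in PBS and from 29.0 through 29.3 to 34.9 CPM in ghrelin. All 6 ghrelin libraries were below the PBS median, 4 of them were below every PBS library, and 4 PBS libraries were above every ghrelin library. The groups met only through PBS 5 and PBS 6, the lowest of PBS at 34.2 and 32.7 CPM, and ghrelin 2 and ghrelin 5, the highest of ghrelin at 34.9 and 33.4 CPM. The mean went from 39.3 ± 5.44 to 30.8 ± 2.62 CPM (SD, n = 6 each), a ratio of 0.784. The log2 fold change was -0.35 (SE 0.09), with an unadjusted p of 0.00124, smaller in 0.84% of tested genes. It did not pass by the quasi-likelihood test (adjusted p = 0.145, from 0.0908 to 0.277 when each library was left out in turn) and passed by DESeq2 (adjusted p = 0.0263).

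**Figure D4:**
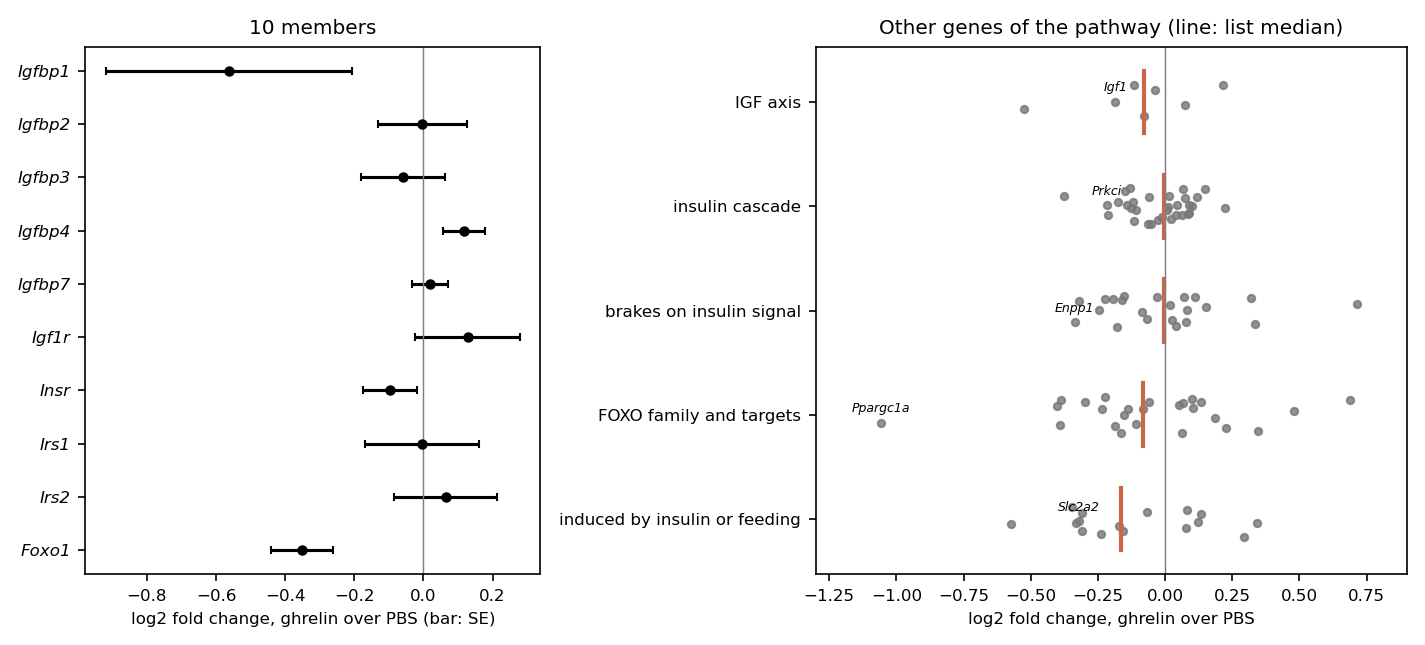
Left, log2 fold change (ghrelin over PBS) of the 10 genes with SE. Right, the same for the tested genes of 5 pathway lists, 1 point per gene, with the list median as a line and the gene of smallest p named. Foxo1 is the member farthest from 0 in units of its SE, and Ppargc1a is the point farthest to the left.

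The rest of the IGF axis was measured in 7 of 17 listed genes, with 0 called by edgeR or DESeq2, 2 positive and 5 negative, and their median was -0.08. An unadjusted p under 0.05 was found for 2 of the 7, or 28.6% against 13.4% of all tested genes, 1 higher and 1 lower. Igf1, the ligand, ran from 484 to 627 CPM in PBS and from 459 to 531 CPM in ghrelin, with all 6 ghrelin values below the PBS median. It had a difference of -0.18 on the log2 scale (SE 0.07, adjusted p = 0.296). Igfals, the acid-labile subunit that holds IGF-1 and IGFBP3 in the large plasma complex, had 0.21 (SE 0.10, adjusted p = 0.357), Ghr, the growth hormone receptor, -0.04 (SE 0.07) and Igf2r, a clearance receptor for IGF-2, -0.08 (SE 0.05). Igfbp5 and Igfbp6, binding proteins of low level here, had -0.12 (SE 0.14) and -0.53 (SE 0.43), the value of Igfbp6 on only 3 to 28 counts per library. Igf2, silent in adult mouse liver, had 39 counts over all libraries and lay below the filter.

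The cascade below the receptors was measured in 32 of 34 listed genes, 16 positive and 16 negative, with a median of -0.002 and 0 called by either tool. Of these 32, 5 had an unadjusted p under 0.05 (15.6% against 13.4% of all tested genes), 1 higher and 4 lower. Pik3r1, the regulatory subunit of PI3-kinase that IRS proteins bind, ran from 109 to 172 CPM in PBS and from 82.9 to 117 CPM in ghrelin. Its log2 fold change was -0.38 (SE 0.12, adjusted p = 0.21). Prkci, an atypical protein kinase C, had 17.6 to 21.7 CPM in PBS and 15.1 to 17.3 CPM in ghrelin, without overlap (-0.22, SE 0.07, adjusted p = 0.202). Rps6kb1, the S6 kinase that feeds back on IRS proteins, had 36.6 to 44.3 and 33.5 to 36.4 CPM, also without overlap (-0.17, SE 0.06, adjusted p = 0.223). Over all tested genes 0.826% were without overlap. Pde3b, a phosphodiesterase activated by insulin, had -0.15 (SE 0.05) and Akt2, the main AKT of liver, 0.12 (SE 0.05, adjusted p = 0.33).

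Proteins that restrain the insulin signal were measured in 22 of 23 listed genes, 11 positive and 11 negative, with a median of -0.006 and 0 called by edgeR. Of these 22, 3 had an unadjusted p under 0.05 (13.6% against 13.4% of all tested genes), 0 higher and 3 lower. Enpp1, an ectoenzyme that inhibits the insulin receptor, ran from 27.4 to 36.1 CPM in PBS and from 21.3 to 28.8 CPM in ghrelin. The difference was -0.34 on the log2 scale (SE 0.09, adjusted p = 0.147). It passed by DESeq2 (adjusted p = 0.0303). Trib2, a pseudokinase, had -0.32 (SE 0.15). Socs3, a cytokine-induced suppressor, had the largest log2 fold change of the list, 0.71 (SE 0.37, adjusted p = 0.415), with ghrelin values from 12.6 to 59.3 CPM.

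Other FOXO factors, cofactors and known targets were measured in 25 of 26 listed genes, 11 positive and 14 negative, with a median of -0.08 and 0 called by edgeR (6 at an unadjusted p under 0.05, 3 higher and 3 lower, or 24% against 13.4% of all tested genes). Ppargc1a, the coactivator that works with FOXO1 on gluconeogenic genes, ran from 17.1 to 37.7 CPM in PBS and from 8.76 to 17.5 CPM in ghrelin. Its log2 fold change was -1.06 (SE 0.20, adjusted p = 0.0564), and it passed by DESeq2 (adjusted p = 5.69e-05). Without the count filter its adjusted p by edgeR was 0.00286, and with robust dispersion it did not pass. With each library left out in turn the adjusted p ran from 0.0318 to 0.159, and it passed only without PBS 4 (0.0318) and without PBS 5 (0.0493). The gluconeogenic targets G6pc and Pck1 had log2 fold changes of -0.40 (SE 0.31) and -0.06 (SE 0.13), and Foxo3, a close relative of Foxo1, of -0.16 (SE 0.13). Without PBS 5 they were -0.17 for G6pc and -0.079 for Foxo3, and Foxo3 reached -0.26 without PBS 4. Creb1, the cAMP-responsive factor, had -0.19 (SE 0.07, adjusted p = 0.3 by the quasi-likelihood test) and Fbxo32, a ubiquitin ligase, 0.34 (SE 0.14, adjusted p = 0.308). Gadd45a, a stress gene, had 0.69 (SE 0.28, adjusted p = 0.308) on 21 to 100 counts per library.

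A list of genes mostly raised by insulin or feeding was measured in 16 of 17 genes, 6 positive and 10 negative. The median was -0.16, with 0 called by either tool. Of these 16, 4 had an unadjusted p under 0.05 (25% against 13.4% of all tested genes), 1 higher and 3 lower. Slc2a2, the glucose transporter of hepatocytes, had 304 to 382 CPM in PBS and 248 to 385 CPM in ghrelin (-0.32, SE 0.10, adjusted p = 0.222). Ghrelin 4, at 385 CPM, was the only ghrelin value above the PBS median, and without it the adjusted p was 0.0422, against up to 0.391 with other libraries left out, none of which passed. Srebf1, the lipogenic regulator, had -0.35 (SE 0.13; -0.20 without PBS 5), Fasn, the fatty acid synthase, -0.57 (SE 0.19) and Mlxipl, the carbohydrate response factor, 0.30 (SE 0.12).

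Levels of members were compared across libraries in 6 pairs (log2 CPM, Pearson and Spearman, permutation p over 100000 resamples, adjusted over the 6 pairs). Over 12 libraries the levels were not centred by group and were shuffled across both groups. Those values therefore take in any difference between the groups as well as variation within them. Igfbp1 and Irs2 had r = 0.653 (p = 0.0199, adjusted 0.116) and rho = 0.699 (p = 0.0144, adjusted 0.0512) over 12 libraries. Within PBS r was 0.824 and within ghrelin 0.827 (exact permutation p = 0.0444 in each, n = 6, adjusted 0.208 and 0.133). Without PBS 5 and ghrelin 6, the farthest from the Igfbp1 median, r was 0.573 (permutation p = 0.0889, n = 10). The relation did not pass after adjustment.

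Foxo1 and Insr had r = 0.6 (p = 0.0387, adjusted 0.116) and rho = 0.685 (p = 0.0171, adjusted 0.0512) over 12 libraries. Within ghrelin r was 0.878 (exact permutation p = 0.0194, n = 6, adjusted 0.117) and within PBS 0.368 (exact permutation p = 0.517, n = 6, adjusted 0.517). Without PBS 2 and PBS 3, the farthest from the Foxo1 median, it was 0.689 (permutation p = 0.0284, n = 10, adjusted 0.171).

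Between Foxo1 and the levels of these targets no relation passed the test. For Foxo1 and Igfbp1, r was 0.197 over 12 libraries (p = 0.546, adjusted 0.546; rho = 0.189, p = 0.561), with -0.515 in PBS and 0.497 in ghrelin. For Foxo1 and Irs2, r was -0.437 (p = 0.154, adjusted 0.231; rho = -0.308, p = 0.33), with -0.819 in PBS and 0.658 in ghrelin (exact permutation p = 0.0694 and 0.175, n = 6 each). The difference between groups was not tested. Insr and Irs2 had r = -0.296 (adjusted p = 0.414; rho = -0.168) and Igf1r and Insr r = -0.457 (adjusted p = 0.231; rho = -0.503), and neither passed.

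**Figure D5:**
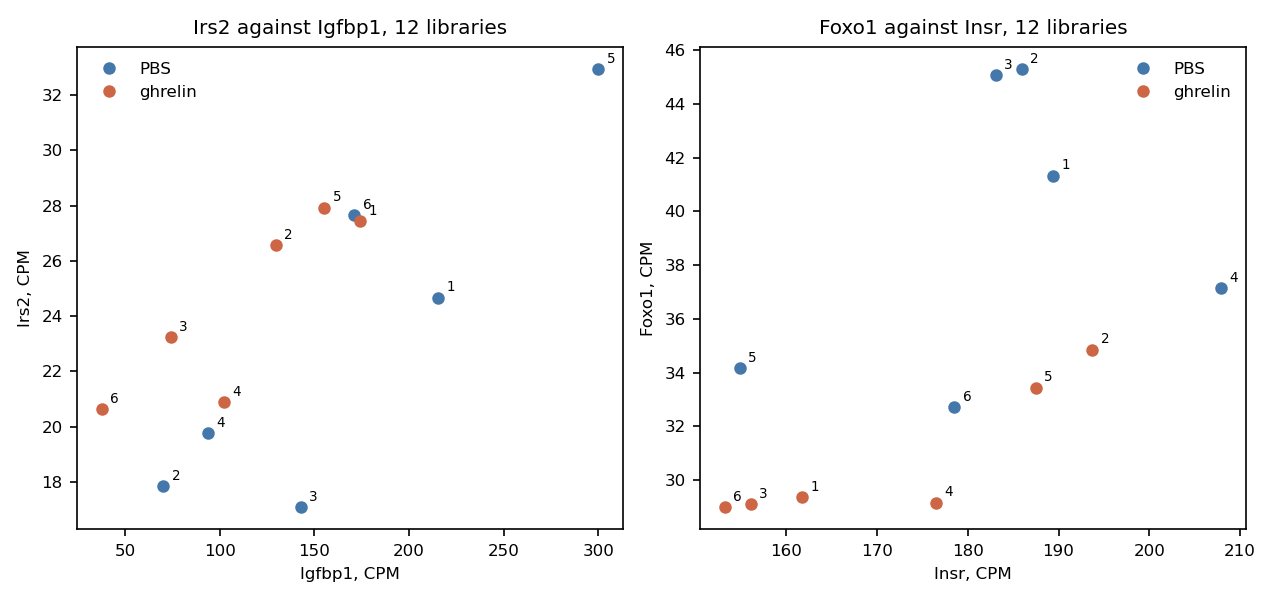
Irs2 against Igfbp1 (left) and Foxo1 against Insr (right) in CPM, 1 numbered point per library, blue for PBS and orange for ghrelin (axes do not start at 0). Igfbp1 and Irs2 are both highest in PBS 5, and PBS 1, PBS 2 and PBS 3 hold the highest Foxo1 levels.

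The genes most like a member were taken by the correlation of log2 CPM after each group mean was subtracted, over 12 libraries and 14170 genes, as a description. For Igfbp1 they were B4galt3 (r = 0.93), Galt (0.899), Fam129b (0.898) and Mad2l2 (0.884). For Foxo1 they were Baiap2l1 (r = 0.935), Arhgap17 (0.93), Mlxip (0.928), Plin5 (0.918) and Pde4dip (0.91). None of these genes was called by edgeR, which called 0.106% of all tested genes. The correlations are high by selection, as the highest of 14170 over 12 libraries, and no relation was tested.

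In GENCODE M21 (GRCm38, the same assembly as mm10) all 10 genes are protein-coding and the counts are over their exons. Igfbp1 (ENSMUSG00000020429) spans chr11:7197782-7202546 on the plus strand, and Igfbp3 (ENSMUSG00000020427) is its neighbour at chr11:7206086-7213923 on the minus strand. Foxo1 (ENSMUSG00000044167) spans chr3:52268336-52353221, Insr (ENSMUSG00000005534) chr8:3122061-3279617, Irs1 (ENSMUSG00000055980) chr1:82233101-82291416 and Irs2 (ENSMUSG00000038894) chr8:10984681-11008458. The RefSeq start of Irs2 used for its promoter window lies upstream of this span. Opposite-strand genes share 30.9% of the exon bases of Irs1 (Gm9747, 11 counts in all), 7.78% of Foxo1 (Gm20402, 35 counts), 2.56% of Irs2 (9530052E02Rik, 57 counts) and 7.03% of Igfbp7 (Polr2b, 14888 counts). No source used here says whether strand was used in counting, and without it reads from these stretches cannot be told apart.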

How the data were processed

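Mouse liver RNA was sequenced in 12 libraries as stranded total RNA after ribosomal RNA depletion, per the labels' protocols. The deposited values are raw counts per gene over exons, left unnormalised by the authors. Alignment was with STAR 2.4.0i, on build mm10, per the submitters' processing notes, and no source used here names the counting tool or its settings. Groups come from the treatment label. No library was a repeat deposit of another of its group (chi-square per degree of freedom 11.7 to 48.6).

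Low genes were removed in edgeR 4.0.16 by filterByExpr (count 10, total 15), and the rest were scaled by TMM and tested by the quasi-likelihood F test, two-sided, in R 4.3.3, with Benjamini-Hochberg adjustment over 14170 genes. SE is the size of the log2 fold change over the root of its F. CPM are TMM-scaled and taken over the tested genes. Log2 CPM used a prior count of 2, and ratios had 2 counts added to each gene. Levels per length used merged exons of GENCODE M21, known for 98.3% of tested genes. Ratios were compared by exact permutation over 924 assignments, whose smallest p is 0.00216. On simulated counts for this comparison (14170 genes), 54% of 50 genes with a log2 difference of 0.5 and 72% of 50 with 1 were recovered. Counts were drawn independently between genes, with the dispersions that edgeR estimated here. Recovery is over genes taken at random and gives no power for a single member. For differences of 1.5 and 2 it was 92% and 94%, of 50 genes each. All these genes were in the same simulation, which had 8 false calls among the genes without a simulated difference. Alternatives were DESeq2 1.42.0, other scaling and filters, robust dispersion, a replicate block and leaving out each library.

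The members and lists were chosen with earlier results of these data known. Named genes are the members, 15 further preset pathway genes, called genes and the 4 of smallest p in each list, and the 5 genes most like Igfbp1 and Foxo1. Some genes that this rule names are not reported here. No limits from counting error alone are given, and counts may include PCR copies, which are not independent molecules. Replicate numbers are not said to pair the libraries; the check of pairing is given with the alternatives.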

Additional observations from a re-analysis of the deposited data

Results flagged for a closer look

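In 26 sets of 6 values (10 genes and 3 ratios in each group) 1 library stood apart by the gap to its nearest neighbour. The log2 ratio of Igf1r to Insr was -6.23 in ghrelin 2, where the other ghrelin libraries lay from -5.67 to -5.51, a gap of 0.781 of the range. Chance marks about 1 in 20 such sets, and Igf1r rests on 39 counts in that library.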

How the results depend on the processing

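The number of genes called was 15, and 204 with DESeq2, 63 with no filter, 58 with the replicate block, 9 with robust dispersion and 0 to 32 when each library was left out (0 without ghrelin 1 and without ghrelin 3). Of the members, 0 were called, and 1 (Foxo1) with DESeq2. Of the other pathway genes, 0 were called, with 2 by DESeq2 (Ppargc1a and Enpp1), 1 (Ppargc1a) with no filter and 1 (Ppargc1a, adjusted p = 0.0112) with the replicate block, and 0 to 1 when each library was left out. Same-numbered libraries had correlated deviations from -0.081 to 0.272 over 6 pairs, 3 of them over 0.1, and 1 of 6 PBS libraries correlated best with its own number. With the other 3 at or under 0.1 the numbers were not taken to pair the libraries.

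Over 18 alternatives the log2 fold change of Foxo1 stayed between -0.40 and -0.30 and that of Igfbp1 between -0.73 and -0.30. Near 0, signs turned: Igfbp2 was 0.00213 and Irs1 0.0021 with a minimum count of 50, and Irs1 0.013 with the replicate block. With libraries left out the ranges were -0.10 to 0.067 for Igfbp2, -0.11 to 0.13 for Irs1, -0.0089 to 0.19 for Irs2, -0.12 to 0.027 for Igfbp3, -0.063 to 0.0023 for Ghr, -0.15 to 0.0017 for Pck1, -0.018 to 0.10 for B4galt3 and -0.070 to 0.011 for Pde4dip. The ratio of Irs1 to Irs2 differed by -0.18 to 0.0064. The correlation of Foxo1 with Irs2 was 0.157 without the 2 farthest libraries and 0.658 within ghrelin, that of Foxo1 with Igfbp1 -0.515 within PBS, and that of Insr with Irs2 0.509 within ghrelin. The cause was not tested.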
